A study of Mus musculus with 6 samples.

Results

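The 10 genes of resident macrophages and of efferocytosis, the uptake of dying cells, followed here in irradiated mouse femur were Timd4, Mertk, Axl, Cd163, Marco, Mrc1, Siglec1, Adgre1, Csf1r and Spic. They were chosen by name, as 10 of the 43346 genes in the deposited count table. Of these, 9 carry these symbols there, and Adgre1 was found through its gene ID under the older symbol Emr1. All 10 were among the 18757 genes that passed the filter on low counts. The list was proposed with earlier results of this same comparison in view, so the differences of these 10 genes between groups are given as a description.

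The libraries came from C57BL/6 mice, an inbred strain, aged 4 months. A single image-guided focal dose of 24 Gy (gray, the unit of absorbed dose), at 6.6 Gy per minute, went to 5 mm of the distal metaphysis, the flared end of the shaft, in the right femur. The left, contralateral femur was the non-radiated control, so the controls too come from animals that were irradiated. Harvest was on day 21, a time picked because bone was being lost by day 28, and gave 3 radiated and 3 non-radiated libraries of the 5 mm piece with its muscle removed. Nothing in the labels ties a library to a mouse, so p-values measure only the spread between these libraries.

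Resident macrophages of the marrow clear dying cells and the nuclei that erythroblasts expel, recycle haem iron, and help to hold stem cells in place. Dying cells expose phosphatidylserine, a membrane lipid. Receptors either bind this lipid directly, as TIM-4 does, or reach it through bridging proteins. GAS6 bridges to the receptor kinases MERTK and AXL, protein S to MERTK, and MFG-E8 to integrins. Other surface receptors of the same cells, the scavenger receptors and lectins, take up haemoglobin complexes, glycoproteins and particles.

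Total gene counts ran from 34034251 to 48708383 per library. Of the bone markers checked, Col1a1 was at 2980 CPM or more in every library (CPM, the counts-per-million unit, scaled by the trimmed mean of M-values, TMM), and the 8 macrophage markers checked were detected in all 6. A pair of libraries stood apart. In non-radiated library 2, the single row AY036118 took 32.9% of the counts. In radiated library 2, 24 skeletal muscle markers summed to 6676 CPM, against 515 to 959 CPM in the non-radiated libraries. Their sum was 2145 CPM in radiated library 1 and 673 CPM in radiated library 3, which lies within the non-radiated range, and none of the 24 was at 0 in all libraries. Fewer cells of a type and less RNA per cell cannot be told apart in such bulk samples.

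Promoter sequences were looked up because 7 of the members were higher together and 2 lower. The RefSeq promoter table of build GRCm38.p6 held Cd163, Mrc1, Timd4, Spic, Mertk, Axl and Marco, 7 of the 10 members. Shown here, 5′ to 3′ on the gene's strand, are the 250 bases before the start of the 2 lower genes and of the receptor kinases, with the core GGAA of ETS factors, or its complement, in capitals. ETS factors include PU.1, a master regulator of macrophages, and SPI-C, the product of the member Spic.
Cd163 (chr6:124304401-124304650, + strand): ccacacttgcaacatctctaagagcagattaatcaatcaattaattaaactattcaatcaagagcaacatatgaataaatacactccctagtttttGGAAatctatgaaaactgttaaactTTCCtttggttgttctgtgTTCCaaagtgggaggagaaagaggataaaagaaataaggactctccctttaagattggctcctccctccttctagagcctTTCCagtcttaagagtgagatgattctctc
Timd4 (chr11:46810549-46810798, + strand): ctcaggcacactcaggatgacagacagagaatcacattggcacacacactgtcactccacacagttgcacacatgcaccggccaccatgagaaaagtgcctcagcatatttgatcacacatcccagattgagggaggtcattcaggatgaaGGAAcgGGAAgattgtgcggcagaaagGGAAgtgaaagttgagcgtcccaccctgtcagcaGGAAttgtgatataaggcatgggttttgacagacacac
Mertk (chr2:128698665-128698914, + strand): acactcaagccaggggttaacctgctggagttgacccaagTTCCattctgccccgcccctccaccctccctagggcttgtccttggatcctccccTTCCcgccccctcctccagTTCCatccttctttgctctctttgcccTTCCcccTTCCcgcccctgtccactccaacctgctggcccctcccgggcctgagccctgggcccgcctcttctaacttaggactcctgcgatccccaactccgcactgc
Axl (chr7:25788734-25788983, - strand): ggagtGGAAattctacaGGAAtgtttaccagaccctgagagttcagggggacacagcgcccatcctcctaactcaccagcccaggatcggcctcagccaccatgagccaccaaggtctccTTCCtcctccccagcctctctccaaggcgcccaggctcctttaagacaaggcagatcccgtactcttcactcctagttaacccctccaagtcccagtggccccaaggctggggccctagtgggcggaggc

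GGAA was matched 4 times in Cd163 and in Timd4, 5 times in Mertk and 3 times in Axl, counted on both strands, against a median of 3 over 32851 promoter windows of the same length, 93.4% of which hold it. The longer ETS motif AGGAAGT, which contains the core and was searched on both strands, was found in 7.69% of all windows and in 2 of the 7 members, Mrc1 and Spic. The Spic window lies within the Spic gene as counted here, which runs to 88685015, so the RefSeq start used is an internal one. The Mrc1 window overlaps an exon by 22 bases, outside the match. Both matches are shown with 10 bases on each side and the motif in capitals.
Mrc1 (chr2:14229193-14229219, + strand): acttctccccACTTCCTgcgttttctc
Spic (chr10:88683055-88683081, - strand): cctttgcagcACTTCCTtaaaaaatag
The AP-1 motif TGAGTCA, which does not contain the core and was searched on both strands, is in 4.46% of all windows and in none of the 7. A match describes the letters of the window and is not a measured binding site.

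Levels were first compared between genes per gene length, as TMM-scaled CPM per kilobase, a use of the data apart from the comparison of the groups. Axl was the most abundant of the 10 in non-radiated femur, at 54.1 ± 1.63 CPM per kilobase (mean ± SD, n = 3). Csf1r at 41.8 ± 2.98 and Mrc1 at 35.7 ± 4.72 CPM per kilobase came next, and their ranges overlapped. Adgre1 followed at 23.1 ± 2.65, then Mertk at 17.3 ± 1.18 and Cd163 at 16.4 ± 2.36, which overlapped each other. Lower in the order stood Siglec1 at 8.70 ± 0.580 and Spic at 6.87 ± 1.14, and the last places went to Timd4 at 1.71 ± 0.529 and Marco at 0.288 ± 0.0933 CPM per kilobase. Apart from the pairs Csf1r with Mrc1 and Mertk with Cd163, no neighbours in this order overlapped. In radiated femur the order by mean was the same except for Cd163, which moved from the sixth to the eighth place. There Cd163 was at 8.71 ± 1.03 CPM per kilobase, behind Siglec1 at 12.8 ± 1.33 and Spic at 9.03 ± 0.611. The radiated ranges of Cd163, 7.56 to 9.56, and Spic, 8.55 to 9.72 CPM per kilobase, overlapped, so the order of these genes was not resolved.

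**Figure D1:**
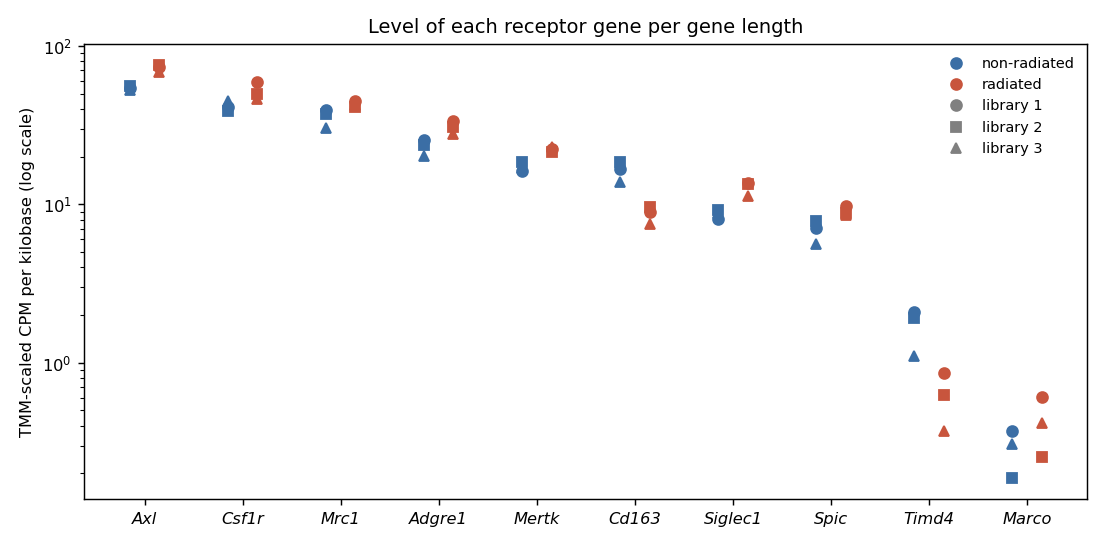
Level of each gene per gene length in TMM-scaled CPM per kilobase (log axis), one point per library, blue for non-radiated and red for radiated, genes ordered by the non-radiated mean. Axl stands highest and Marco lowest in both groups, and the radiated points of Cd163 drop below those of Siglec1.

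Of the members that bind phosphatidylserine directly or through bridging proteins, Timd4 was lower and the kinases Mertk and Axl were higher in radiated femur. Timd4 (ENSMUSG00000055546, chromosome 11, 46810800 to 46844332, build mm10 throughout) encodes TIM-4, which tethers dying cells and marks long-lived resident macrophages in several tissues. Libraries 1, 2 and 3 of the non-radiated group held 166, 105 and 102 Timd4 counts, those of the radiated group 71, 73 and 36. Scaled, these were 4.55, 4.19 and 2.41 CPM against 1.88, 1.37 and 0.807 CPM. Every radiated library lay below every non-radiated one, with non-radiated library 3 and radiated library 3 the lowest of their groups. The log2 fold change (radiated over non-radiated, from the edgeR fit over all genes) was -1.46 (SE 0.32), and the mean of the non-radiated libraries was 2.75 times that of the radiated libraries. Within the same-numbered libraries the log2 differences were -1.28, -1.62 and -1.58.

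Mertk (ENSMUSG00000014361, chromosome 2, 128698956 to 128802894) encodes the kinase through which macrophages engulf dying cells at rest. Its values were 70.7, 80.6 and 73.7 CPM in the non-radiated libraries and 97.1, 92.2 and 99.9 CPM in the radiated ones, with no overlap and a log2 fold change of 0.36 (SE 0.06). Axl (ENSMUSG00000002602, chromosome 7, 25757273 to 25788705), a kinase of the same family that is often induced in inflammation and is also made by stromal cells, was at 271, 281 and 265 CPM without and at 369.8, 383 and 347 CPM with radiation. The lowest radiated library of Axl stood above the highest non-radiated one, and its log2 fold change was 0.43 (SE 0.06). Mertk counts divided by Axl counts gave 0.261, 0.287 and 0.279 in the non-radiated and 0.263, 0.240 and 0.288 in the radiated libraries, so the groups overlapped in the ratio of these kinases. The 13 stromal and fibroblast markers, which could share Axl, summed to 5808 to 7893 CPM in non-radiated and 4805 to 5514 CPM in radiated femur, most of it Col1a1, and none was at 0 in all libraries. Without Col1a1 the other 12 summed to 1707 to 1861 CPM and 1396 to 1821 CPM, which overlap. Of the 13, 10 had negative and 3 positive log2 fold changes. At an edgeR adjusted p under 0.05, Col1a1 (-0.61), Pdgfra (-0.63) and Lepr (-0.48) were lower and none was higher. The part of stromal cells in the Axl difference was not tested.

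Of the scavenger receptors, Cd163 was lower in radiated femur. Cd163 (ENSMUSG00000008845, chromosome 6, 124304651 to 124330527) encodes the receptor that takes up haemoglobin bound to haptoglobin. Without radiation it was at 74.6, 83.4 and 62.3 CPM, and with radiation at 40.4, 43.0 and 34.0 CPM (libraries 1, 2 and 3 of each group). The non-radiated mean was 1.88 times the radiated one, with no overlap between groups. The log2 fold change was -0.91 (SE 0.12), and the same-numbered differences of -0.88, -0.96 and -0.88 on the log2 scale lay close together. Marco (ENSMUSG00000026390, chromosome 1, 120474538 to 120505024), a scavenger receptor that binds bacteria and particles, had only 26, 9 and 25 counts in the non-radiated and 44, 26 and 36 counts in the radiated libraries. Its groups overlapped at 0.359 to 0.713 against 0.487 to 1.16 CPM, and a difference (log2 fold change 0.50, SE 0.37) was not detectable at this depth.

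The lectin receptors Siglec1 and Mrc1 were higher. Siglec1 (ENSMUSG00000027322, chromosome 2, 131069220 to 131086765) encodes CD169, a receptor for sialic acid that marks macrophages of the erythroblastic island and the stem cell niche. It was at 57.8, 66.0 and 62.6 CPM without and at 97.8, 95.5 and 80.4 CPM with radiation, and at a log2 fold change of 0.55 (SE 0.08) had the largest positive value of the 10 genes. All radiated libraries of Siglec1 stood above the non-radiated range, library 3 by the least. Mrc1 (ENSMUSG00000026712, chromosome 2, 14229392 to 14332057), the mannose receptor CD206, which sinusoidal endothelium also makes, was at 252, 237 and 194 CPM against 285, 264 and 269 CPM. Here the gap was narrow, since radiated library 2 exceeded non-radiated library 1 by less than the spread among the non-radiated libraries, and the log2 fold change was 0.26 (SE 0.09). The 15 endothelial markers summed to 894 to 977 CPM in non-radiated and 736 to 814 CPM in radiated femur, with none at 0 in all libraries. That sum was lower through Vwf, which megakaryocytes make too. Without Vwf the other 14 summed to 580.8 to 608.2 CPM in non-radiated and 608.3 to 681.5 CPM in radiated femur, ranges that nearly touch. Of the 15 markers, 10 had positive and 5 negative log2 fold changes. At an edgeR adjusted p under 0.05, Fabp4 alone was higher, at 0.54 (SE 0.09, edgeR adjusted p 0.00622). Vwf and Tek were lower, Tek at -0.60 (SE 0.09, edgeR adjusted p 0.00325). The part of endothelial cells in the Mrc1 difference was not tested.

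The members Adgre1, Csf1r and Spic, grouped here as genes of macrophage identity, all had positive values. Of these, Adgre1 alone had an edgeR adjusted p under 0.05. Adgre1 (ENSMUSG00000004730, chromosome 17, 57358686 to 57483529) encodes F4/80, the classical surface marker of mouse macrophages. It was at 82.4, 76.6 and 65.5 CPM in the non-radiated libraries and at 109.7, 99.6 and 90.7 CPM in the radiated libraries, with a log2 fold change of 0.42 (SE 0.09). Csf1r (ENSMUSG00000024621, chromosome 18, 61105572 to 61132149), the receptor for the macrophage growth factor CSF1, was at 202, 191 and 219.8 CPM against 288, 242 and 226 CPM. Radiated library 3 exceeded non-radiated library 3 by only 0.04 on the log2 scale, while the same differences were 0.52 and 0.34 for libraries 1 and 2. The log2 fold change of Csf1r was 0.30 (SE 0.09). At one end its row overlaps that of Hmgxb3, which lies on the opposite strand and had a mean of 1670 counts, and the sources used here do not say if reads were counted by strand.

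Spic (ENSMUSG00000004359, chromosome 10, 88674772 to 88685015) encodes SPI-C, a transcription factor induced by haem that iron-recycling macrophages of spleen and marrow need. Its values were 27.3, 30.3 and 21.6 CPM in the non-radiated and 37.3, 33.9 and 32.8 CPM in the radiated libraries. No libraries overlapped, but library 2 differed by only 0.16 on the log2 scale within its number, against 0.45 and 0.60 for libraries 1 and 3. The log2 fold change was 0.40 (SE 0.12).

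**Figure D2:**
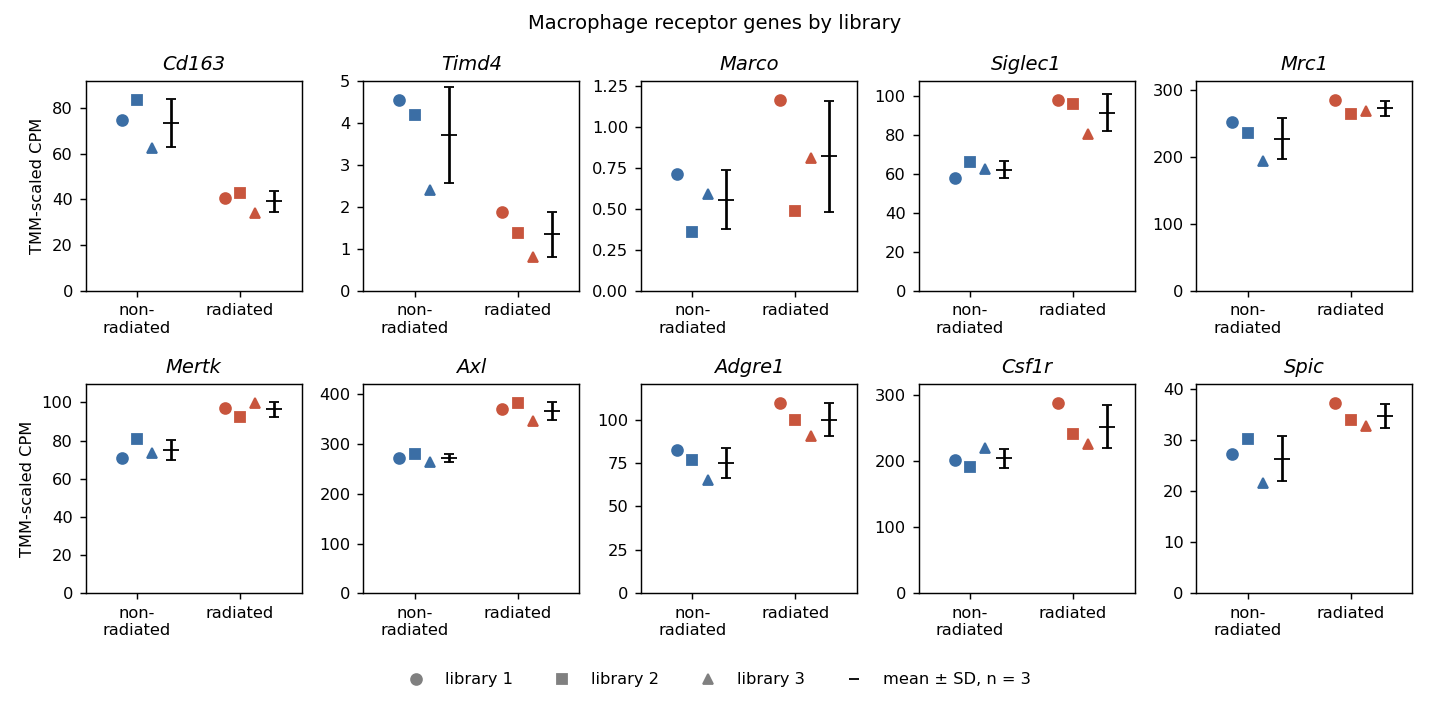
TMM-scaled CPM of each gene in each library, with non-radiated libraries in blue, radiated libraries in red, a symbol for each library number and black bars for the mean ± SD (n = 3), all axes from 0. Cd163 and Timd4 are lower in every radiated library, Marco overlaps, and the other 7 genes are higher in every radiated library.

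Counted over the list, 8 of 10 genes had a positive and 2 a negative log2 fold change, and the groups did not overlap for 9 of them, 7 higher and 2 lower. Over all tested genes, 25.9% did not overlap, 14.4% being higher and 11.5% lower. The median log2 fold change was 0.38 for the 10 genes and 0.00 for all genes tested. At an edgeR adjusted p under 0.05 (Benjamini-Hochberg over 18757 genes), 6 members were called, 4 higher (Siglec1, Axl, Adgre1 and Mertk) and 2 lower (Cd163 and Timd4), where 7.80% of all genes were called, 4.56% higher and 3.24% lower. Because the list was proposed from this comparison, these counts support nothing by themselves. Mrc1, Spic, Csf1r and Marco were not called.

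The direction of each gene was the same in every setting that gave a value, 16 settings for 9 genes and 15 for Marco. Cd163 was called in all 16 and had log2 fold changes from -1.13 to -0.69. Calls of Cd163, Siglec1, Mertk and Axl were kept in each of the 6 fits that left out one library. The call of Timd4 did not hold when non-radiated library 1 was left out (log2 fold change -1.28), nor with non-radiated library 2 left out (-1.38). That of Adgre1 did not hold with any of 4 libraries left out, namely non-radiated 2 (0.42) and 3 (0.32) and radiated 1 (0.35) and 2 (0.42). Csf1r became a call without radiated library 3 (0.38), with no filter (0.30) and by the DESeq2 Wald test (0.30). Spic became one with the library number as a block (0.41), with no filter (0.40), by the DESeq2 Wald test (0.39) and with totals lacking AY036118 and Gm26917 (0.43). Mrc1 did so by the DESeq2 Wald test alone (0.25). Leaving out non-radiated library 2, the library rich in AY036118, gave -0.82 for Cd163, 0.58 for Siglec1 and 0.44 for Axl, and leaving out radiated library 2, the library richest in muscle markers, gave -0.98, 0.52 and 0.40.

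Muscle markers moved with radiated libraries 1 and 2. With the muscle share as a covariate, Cd163 (-1.13), Timd4 (-1.94), Mertk (0.42) and Axl (0.34) were still called, while Siglec1 (0.41) and Adgre1 (0.33) were not. Radiated library 3, whose muscle sum lay within the non-radiated range, had the lowest radiated value of Cd163 and Timd4. It also had the lowest radiated value of Siglec1, Axl, Adgre1, Csf1r and Spic, which puts these genes nearest to the non-radiated libraries there. The part of muscle in these differences was not tested beyond the covariate.

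**Figure D3:**
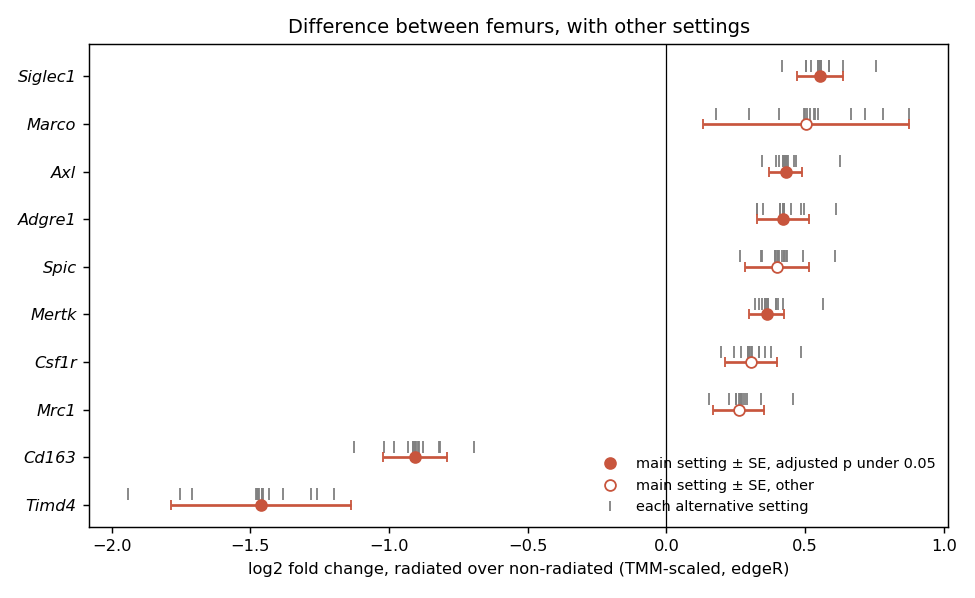
Log2 fold change of each gene, radiated over non-radiated, with its SE in the main setting (filled red where the edgeR adjusted p was under 0.05, open otherwise) and grey ticks for each of the 15 alternative settings. Cd163 and Timd4 stay below 0 and the other 8 genes above 0 in all settings with a value.

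Ratios within a library need no scaling between libraries. For each gene the count was divided by the summed counts of 16 pan-macrophage markers and given per 1000 of these. Cd163 came to 21.3, 22.8 and 18.96 per 1000 in the non-radiated and 11.3, 12.6 and 11.3 per 1000 in the radiated libraries. Siglec1 went the other way, at 16.5, 18.03 and 19.05 against 27.3, 28.0 and 26.8 per 1000. For 9 of the 10 genes, all but Marco, the groups again did not overlap on this measure. Most of the marker sum was Lyz2, which neutrophils also make, and all 13 neutrophil markers had negative log2 fold changes. The ratio is therefore not a level per macrophage. Of the 16 markers themselves, 11 had positive and 5 negative log2 fold changes. The ratio of Siglec1 to Cd163 counts combined both shifts, at 0.775, 0.791 and 1.005 without and 2.42, 2.22 and 2.37 with radiation. Adgre1 counts were 18.1, 18.3 and 27.2 times Timd4 counts without and 58.5, 72.9 and 112 times with radiation. The 4 ratios computed among the higher genes overlapped between groups, as for Csf1r to Adgre1, at 2.45 to 3.36 against 2.43 to 2.63, and Siglec1 to Adgre1, at 0.702 to 0.956 against 0.886 to 0.959.

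**Figure D4:**
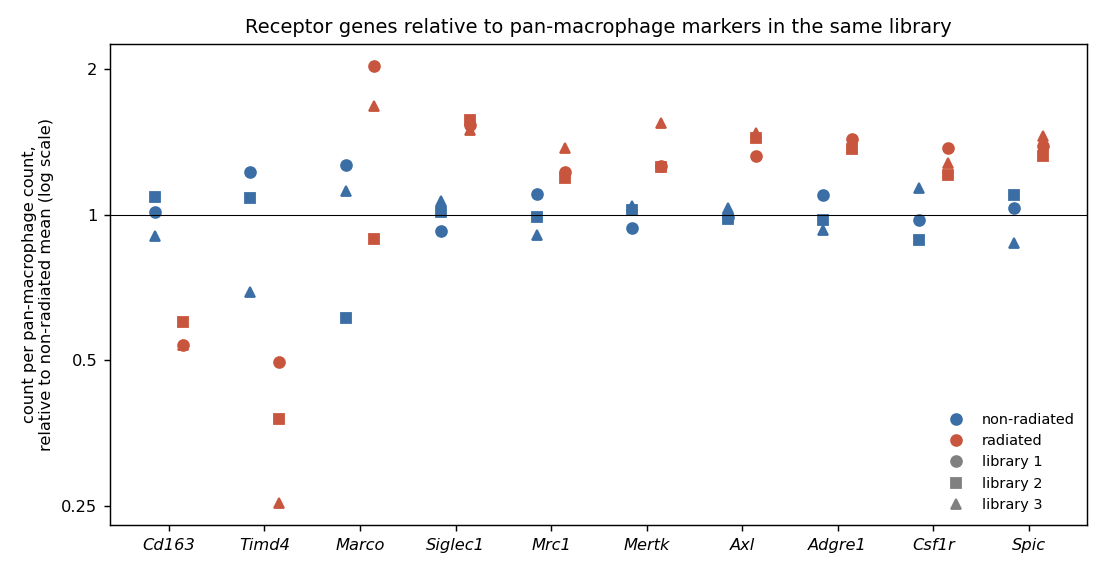
Count of each gene per count of 16 summed pan-macrophage markers in the same library, relative to the non-radiated mean (log axis), blue for non-radiated and red for radiated libraries. Cd163 and Timd4 fall below the non-radiated points and all genes but Marco separate the groups. Most of the marker sum is Lyz2, which neutrophils also make.

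The pan-macrophage markers overlapped between groups in their sum. Together the 16 were at 3286 to 3662 CPM in non-radiated and 3004 to 3575 CPM in radiated femur, most of it Lyz2, which neutrophils also make. By edgeR 5 of the 16 rose and none passed the test in the lower direction, where 2 had an unadjusted p under 0.05. The list's median log2 fold change was 0.16. C3ar1, a complement receptor, rose by 0.78 (SE 0.10, edgeR adjusted p 0.00191), and Ms4a7, Fcgr1, Cd68 and Ctss rose by 0.59, 0.55, 0.43 and 0.40. Left out one at a time, non-radiated libraries 1 and 2 and radiated library 1 brought the 5 calls to 2, 3 and 2. Lists of this and the following kind were chosen by function with earlier results of these data known.

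Bridging proteins link dying cells to these receptors. Of 13 tested, 6 rose and 1 fell, with a median log2 fold change of 0.45. With the muscle covariate 4 rose and 1 fell, the calls of Gas6 and C1qc were lost, and the median was 0.11. Gas6, the ligand shared by Mertk and Axl, was at 95.8, 114.9 and 125 CPM in the non-radiated and 189, 179 and 158 CPM in the radiated libraries, without overlap. It rose by 0.65 (SE 0.10, edgeR adjusted p 0.00510). Mfge8, which links phosphatidylserine to integrins, rose by 0.75 (SE 0.10, edgeR adjusted p 0.00219), from 14.98, 15.6 and 17.2 CPM to 28.4, 28.7 and 23.3 CPM. C1qa, C1qb and C1qc, the chains of complement C1q, which macrophages secrete, rose by 0.57, 0.60 and 0.62, and Ptx3, a pentraxin, by 1.12. Pros1, the other ligand of the receptor kinases, was not called, at 52.0 ± 5.20 CPM against 46.5 ± 1.03 CPM (mean ± SD, n = 3). Thbs1, thrombospondin 1, which platelets store in quantity, fell by 0.96 (SE 0.06, edgeR adjusted p 2.29e-05).

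Of 22 other receptors for dying cells that were tested, 3 rose and 2 fell, with a median of 0.05. Lrp1, a large endocytic receptor, rose by 0.56 (SE 0.10, edgeR adjusted p 0.00844), as did Megf10 by 0.56 and Stab1 by 0.56. Itgb3 fell by 1.09 (SE 0.06, edgeR adjusted p 1.43e-05). Its product pairs with an integrin alpha chain in phagocytes and osteoclasts and is also an abundant platelet integrin. Cd300lf fell by 0.28. Tyro3, the remaining member of the receptor kinase family, was low, at 0.649 ± 0.0782 CPM without and 1.06 ± 0.296 CPM with radiation (n = 3 each), and was not called. The 5 calls of this list became 3, 2 and 3 on leaving out non-radiated library 2, radiated library 1 or radiated library 3. With the muscle covariate 0 of its genes were called higher and 2 lower, with a median of -0.02. The calls of Lrp1, Megf10, Stab1 and Cd300lf were lost in that setting. Rows of Stab1 and Cd300lf overlap those of Nt5dc2 and Rab37, which makes their counts uncertain if strand was not used.

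The engulfment machinery and its regulators moved in both directions, with 5 of 23 genes higher, 2 lower and a median of 0.00. Abca1, the cholesterol exporter induced when macrophages digest dying cells, rose by 0.33 (SE 0.06, edgeR adjusted p 0.0106). Its regulators Nr1h3, which encodes the receptor LXR-alpha, and Rxra rose by 0.49 and 0.38. Rubcn, needed for a form of phagocytosis assisted by autophagy proteins, rose by 0.38. The Rubcn row overlaps that of Fyttd1, which had a mean of 1460 counts, so the Rubcn count is uncertain. Dock1 and Vav3, activators of Rac, fell by 0.26 and 0.30. Adam17 and Adam10, proteases that shed Mertk, Axl and Cd163 proteins among many others, were not called, at 80.7 ± 1.26 and 84.9 ± 0.553 CPM for Adam17 and 356 ± 18.2 and 314 ± 17.8 CPM for Adam10 (non-radiated and radiated, mean ± SD, n = 3). The 7 calls became 2 on leaving out non-radiated library 1, 1 for non-radiated library 2, 1 for radiated library 1 and 3 for radiated library 2.

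Among signals against engulfment, Siglecg, a receptor for CD24 that is abundant on B cells, rose by 0.65 (SE 0.07, edgeR adjusted p 0.000885). Cd47, the signal read by macrophage SIRP-alpha, was not called, at 637 ± 42.3 CPM against 557 ± 27.7 CPM (n = 3 each). The Cd47 row overlaps that of the pseudogene AC107830.1, which had a mean of 5520 counts.

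Of the CSF1 receptor ligands and macrophage transcription factors, 2 of 18 tested genes rose and none fell, with a median of 0.06. One was Csf1 itself, which was at 46.6, 46.6 and 55.8 CPM in the non-radiated and 77.2, 69.5 and 71.7 CPM in the radiated libraries. Csf1 rose by 0.55 (SE 0.08, edgeR adjusted p 0.00378) and was called in all 16 settings. Maf, a factor of resident macrophages, rose by 0.39 (SE 0.06, edgeR adjusted p 0.00326). Il34, the other ligand, was not called, at 6.36 ± 0.678 CPM against 5.10 ± 0.561 CPM, and neither was Spi1, which encodes PU.1, at 59.9 ± 7.87 CPM against 55.7 ± 5.52 CPM (n = 3 each).

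Other scavenger and resident macrophage genes gave 3 calls of 17, with a median of 0.19. Cbr2 rose by 1.37 (SE 0.19, edgeR adjusted p 0.0026) and Pltp by 0.48, and F13a1 fell by 0.32. The Pltp row overlaps that of Ctsa. Leaving out one library brought the 3 calls to 1 for each of non-radiated libraries 1 and 2 and radiated libraries 1 and 2. In the erythroblastic island list 2 of 15 rose and none fell. Hmox1, the haem-degrading enzyme, was at 218, 228 and 214 CPM against 331, 326 and 281 CPM and rose by 0.51 (SE 0.07, edgeR adjusted p 0.00306), and Sdc3 rose by 0.41. Vcam1, an adhesion molecule of island macrophages, was not called, at 377 ± 57.3 CPM without and 444 ± 14.1 CPM with radiation (n = 3 each).

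**Figure D5:**
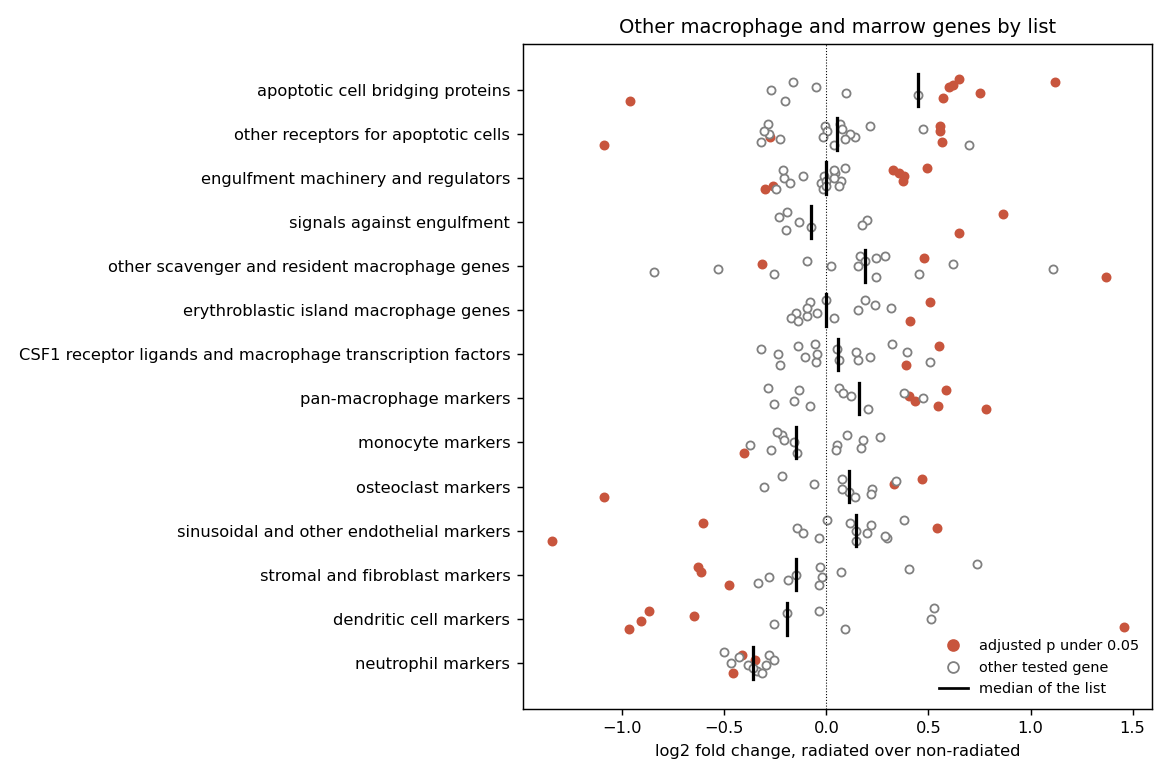
Log2 fold change of each tested gene, radiated over non-radiated, in 14 lists of macrophage, pathway and marrow cell genes (filled red where the edgeR adjusted p was under 0.05, black bar at the list's median). Without a muscle covariate, the bridging proteins have the highest median of these lists, 0.45, and the neutrophil markers the lowest, -0.36.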

How the data were processed

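RNA of 5 mm femur pieces from 3 radiated and 3 non-radiated femurs was sequenced with a stranded mRNA kit, per the labels' protocols. The submitters' processing notes name bcl2fastq, STAR 2.5.2b, Subread, featureCounts and build mm10, with no roles. Annotation, filters and use of strand are not given in the sources used here. The authors deposited raw counts and RPKM per gene and library, and the RPKM values were not used.

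Testing used the counts with edgeR 4.0.16 under R 4.3.3 (filterByExpr with minimum count 10 and minimum total 15, TMM, quasi-likelihood test with the group as the only term, Benjamini-Hochberg over all genes tested). A gene is called at an adjusted p under 0.05. SEs were taken as the fitted log2 value over the root of its F statistic. The fit was tested on simulated data. Promoters came from RefSeq, build GRCm38.p6.

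Each of 6 libraries was left out in turn, and 9 other alternatives made 15 in all. These were scaling by DESeq2 1.42.0, by library totals, or by totals lacking AY036118 and Gm26917, testing by DESeq2 (Wald) or limma-voom (limma 3.58.1), all genes or those averaging 1 CPM, a library number block, and a muscle share covariate. Deviations from group means correlated at 0.183, 0.373 and 0.200 for equal numbers and at 0.0419 or less for unequal ones, across genes. The numbers were therefore used for the same-numbered differences and the block, while the main fit left them out. These correlations do not show that a number marks a mouse. Replicates differed by more than sampling noise.

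The members and the 15 gene lists (242 entries, 9 genes in more than 1 list) were chosen with earlier results of these data known. Named are all members, up to 6 called genes per list with the smallest p, or else the 2 of highest level, and the genes nearest to a member. C1qc, Pros1, Tyro3, Adam17, Adam10, Cd47, Il34, Spi1, Vcam1, Ly6c2, Ccr2, Acp5 and Ctsk, all outside this rule, were named for their role after their values were seen. One gene that the rule names is not reported here.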

Additional observations from a re-analysis of the deposited data

How the results depend on the processing

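With library totals alone, which let AY036118 enter the scaling, all genes together shifted to a median of 0.20 (log2), and of 1000 called genes 85.4% were higher, against 58.5% of 1463 with TMM. Under that scaling 1 member was called higher, and relative to the shift Cd163 (-0.69) and Timd4 (-1.26) stayed apart from the rest. DESeq2's Wald test called 7 members higher. With the muscle covariate 2 members were called higher and 768 genes in all, and Fn1 (-0.13) reversed. Ttn (-0.11) and Myh4 (-0.48) reversed too, but both are among the markers that make up the covariate, so nothing is drawn from their reversal. Leaving out one library gave 764 to 1376 called genes, 3 to 5 members called higher and 1 to 2 called lower.

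With the library number as a block, 1670 genes were called, with 5 members higher and 2 lower. Among the 10 genes it changed the call of Spic alone, and among the lists it moved the calls by over 1.5 times for neutrophil (3 to 7), monocyte (1 to 3) and muscle markers (0 to 19 of 24). The muscle count of 0 was that of the main edgeR fit, where all 24 had an unadjusted p under 0.05. The DESeq2 Wald test and limma-voom also called 0, while library totals alone, or no filter, called 24. No filter gave 2073 called genes. Calls in the lists moved by over 1.5 times as follows. With library totals alone they were 0 for engulfment, neutrophil and monocyte genes, 1 for stromal, osteoclast, erythroblastic island and CSF1 or transcription factor genes, 2 for pan-macrophage and 3 for dendritic genes. With the muscle covariate they were 0 for monocyte, 1 for engulfment and scavenger, 2 for other receptor and pan-macrophage, and 5 for neutrophil genes. With no filter they were 3 for monocyte, 5 for scavenger, osteoclast and stromal, 8 for pan-macrophage and 10 for neutrophil genes. The DESeq2 Wald test gave 5 for monocyte and osteoclast, 8 for pan-macrophage and 13 for neutrophil genes, limma-voom 5 for neutrophil genes, and totals lacking AY036118 and Gm26917 gave 5 for osteoclast and endothelial genes. No member reversed under any setting. Depth limits Marco and Timd4, with at most 44 and 166 counts in a library.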

Other observations

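Markers of other myeloid cells were counted in the same way. Of 11 dendritic cell markers 4 fell and 1 rose, with a median log2 fold change of -0.20. Siglech and Ccr9, of plasmacytoid cells, fell by 0.87 and 0.91, and Flt3, the growth factor receptor of the lineage, by 0.65 (SE 0.08, edgeR adjusted p 0.002). Clec9a fell by 0.97, but its row overlaps that of Clec1b, a megakaryocyte gene, and that of Ccr9 overlaps several others, so both counts are uncertain. Xcr1 rose by 1.46 from a low level, 0.186 ± 0.0181 CPM to 0.505 ± 0.0978 CPM (mean ± SD, n = 3), in the opposite direction to Clec9a. The Xcr1 call was lost in each of the 6 fits that left out one library, with log2 fold changes of 1.27 to 1.54, and with the library number as a block (1.41).

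Of 14 monocyte markers 1 was called, Chil3, which fell by 0.40 (SE 0.10, edgeR adjusted p 0.0398), and with the library number as a block 3 were called. The Chil3 call was lost in 5 of the 6 fits without one library, all but that without non-radiated library 3. Ly6c2, of classical monocytes, was at 159 ± 11.03 CPM without and 132 ± 15.3 CPM with radiation, and Ccr2 at 144 ± 12.7 and 130 ± 17.7 CPM (n = 3 each), neither of them called. All 13 neutrophil markers had negative values, 3 of them called, with a median of -0.36, and Retnlg fell by 0.46 (SE 0.08, edgeR adjusted p 0.0111). The 3 neutrophil calls were 7 with the block, 10 with no filter and 13 by the DESeq2 Wald test, 0 with library totals alone, and 1 on leaving out radiated library 1, radiated library 3 or non-radiated library 2. Among osteoclast markers Tnfrsf11a, which encodes the receptor RANK, rose by 0.47 and Atp6v0d2 by 0.33, while Acp5 and Ctsk were not called, with log2 fold changes of 0.08 and 0.11. The 3 osteoclast calls, with Itgb3 the one that fell, became 1 on leaving out radiated library 1 or either of non-radiated libraries 1 and 2, and 5 on leaving out non-radiated library 3.

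The genes whose profile over the 6 libraries lay nearest to that of one of the 10 receptor and identity genes were found by the root-mean-square difference of log2(CPM + 1), centred on each gene's mean, over 15580 genes. Serpinb10 was nearest to Cd163 (0.0232) and second nearest to Timd4 (0.179), for which Syt15 was nearest (0.177). Nearest to Siglec1 were Fabp5 (0.0507) and Hmox1 (0.0510), and nearest to Adgre1 was Clec4a1 (0.0546). The nearest to Axl was Lck (0.0248), to Mrc1 Prdx1 (0.0296), to Spic Gbp8 (0.0421), to Csf1r Spats2 (0.0276) and to Marco Prrg4 (0.0464). These 6 libraries fall into 2 groups, and the genes of a pair share libraries and scaling.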
